A study of Mus musculus with 12 samples.

Results

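The late control group of the study, mice killed 7 d after the last of their daily saline injections, was compared with the control mice killed 24 h after it. The RNA came from the prefrontal cortex (PFC; frontal association, prelimbic and orbital cortex) of adult male C57BL/6 mice (C57BL/6 J in the methods), labelled as 10 weeks old in every group, and the poly-A transcripts were sequenced in read pairs. The study has 6 groups, saline and cocaine at 2 h, 24 h and 7 d after the last intraperitoneal injection, with 2 libraries per group, each made from the PFCs of 5 mice. No group carried a transgene or a mutation, and the saline mice received the vehicle in which cocaine was dissolved. The comparison therefore concerns 4 libraries from 20 mice that received no drug, and asks how the control level at 7 d stood beside that at 24 h.

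The authors deposited 1 table per time point, with 1 pooled FPKM (a fragment count divided by transcript length and by the mapped fragments) for saline and 1 for cocaine at each locus. Each value below is the authors' pooled value of a group. The tables hold no value per library, so there is no SD, no n and no test behind any ratio, and the depth behind each value is not given in them. The tables were made separately for each time point, so that the time after injection, the table and any difference between library batches cannot be told apart. A gene entered the comparison when its row was marked as tested in both tables and when both saline values were at least 1 FPKM, and a name on several loci took its longest locus. These conditions held for 12709 of the 16077 gene names tested in any table. Of the 14551 names tested in both, 340 reached 1 FPKM in saline only at 24 h, 217 only at 7 d and 1285 at neither time. Just inside the limit stood Sdk2 with 1.00032 FPKM at 24 h and 1.02471 at 7 d, and just outside it E130317F20Rik with 1.33987 and 0.999847. All log2 ratios are saline 7 d over saline 24 h, centred on the median of all genes compared, which was -0.0227 before centring.

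Control mice in such a study are handled and injected in the same way as the treated mice, and their brain transcriptome serves as the baseline. Immediate-early genes are transcribed within minutes of neuronal activity without new protein synthesis, so that handling, waking and injection can all raise them. Nuclear and mitochondrial genes of oxidative phosphorylation, and the genes of the ribosome and the proteasome, are by contrast short, abundant housekeeping transcripts that tend to vary together.

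Among the 12709 genes, 410 were higher at 7 d than at 24 h by a log2 ratio of at least 0.5, a ratio of 1.41, which is 3.23% of the genes compared. Another 375 were lower by at least as much, which is 2.95%, so that 6.18% passed in either direction. A log2 ratio of at least 1 was reached by 188 genes (1.48%), of which 103 were higher and 85 lower. Over the 10668 genes with a known transcript length the split was 204 higher and 244 lower, and it was 142 higher and 221 lower once a trend with that length, given further down, was subtracted. The middle 50% of the ratios spanned 0.297 on the log2 scale. The same span was 0.275 for saline 7 d over saline 2 h, 0.212 for saline 2 h over saline 24 h and 0.208 for cocaine 7 d over cocaine 24 h. The shares past 0.5 were 5.29% of 12627 genes, 3.77% of 12928 genes and 4.19% of 12708 genes in the same order. The pairs of saline groups share a group with each other, whereas the cocaine pair shares no library with the saline pair. Both pairs with the 7 d saline group were thus spread wider than the pair of the earlier saline groups and the pair of cocaine groups.

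**Figure D1:**
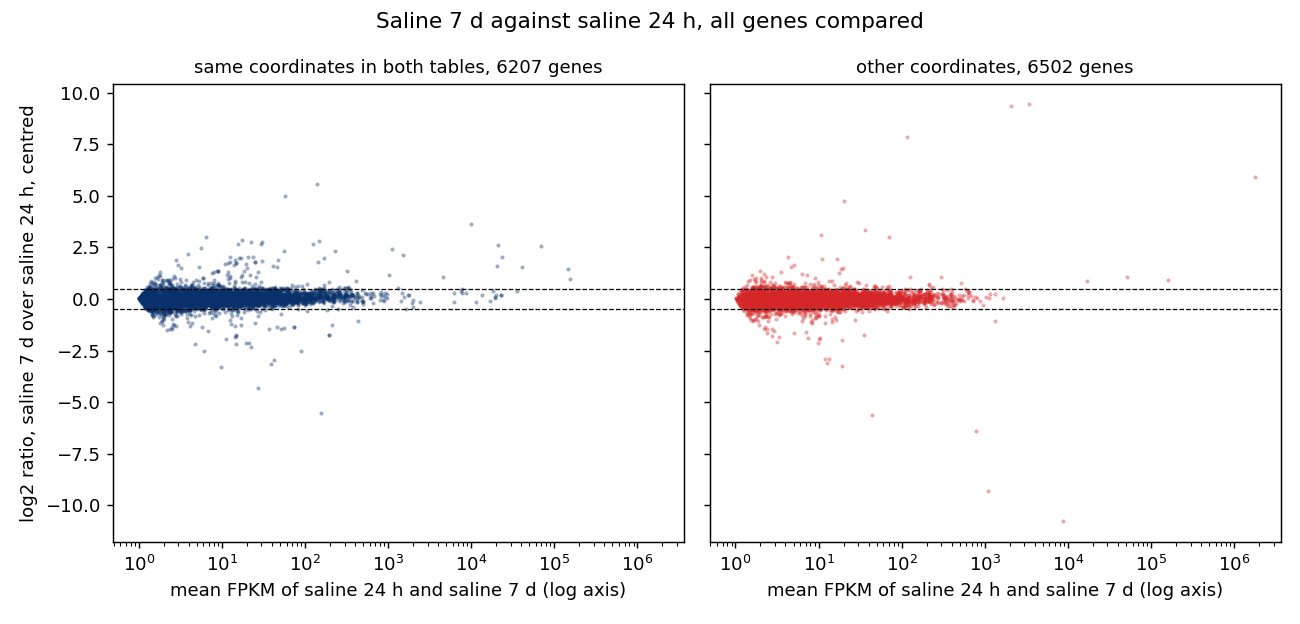
Each point is 1 gene, with its mean pooled FPKM in both saline groups on a log axis and its centred log2 ratio of saline 7 d over saline 24 h on the vertical axis. The left panel holds the 6207 genes whose locus had equal coordinates in both tables and the right panel the 6502 others, the dashed lines mark 0.5 in each direction, and the ratios furthest from 0 stand in the right panel.

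The few ratios past 3 in size belonged mostly to loci whose coordinates differed between the tables, by however little, 13 against 7 with equal coordinates. Equal coordinates in both tables were found for 6207 genes (48.8%), of which 7.06% passed 0.5, against 5.34% of the other 6502. At a limit of 1, 74 higher and 47 lower genes had equal coordinates and 29 and 38 had others. Among the 24 genes named by size, 12 in each direction, 17 had other coordinates. Ensa, which encodes an inhibitor of protein phosphatase 2A, was listed at 1.01 FPKM at 24 h and 229 at 7 d in saline, and at 215 at 2 h. Its longest locus spanned chr3:95632520-95641650 (GRCm38) in the 24 h table and chr3:95624980-95632102 in the 7 d table, and these do not overlap. With the locus of highest mean FPKM in place of the longest, the log2 ratio of Ensa was 0.23 rather than 7.84, and that of Tmem261 0.42 rather than 4.72. Other large ratios did not depend on this choice of locus. Cdk8, a kinase of the Mediator complex, was listed at 17249 FPKM at 24 h and 9.63 at 7 d in saline, and at 21629 and 6.08 in cocaine. Its locus began at base 146230629 at 24 h and 146230628 at 7 d, with the same end. Jarid2, a partner of Polycomb repressive complex 2, went from 2178 to 3.37 FPKM between the same saline groups, and Gphn, which encodes the inhibitory synapse scaffold gephyrin, from 1547 to 17.7. With the locus of highest mean FPKM the ratios were still -10.78 for Cdk8, -9.31 for Jarid2 and -6.42 for Gphn. The 2 h table lists saline at 7.01 FPKM for Cdk8, 4.19 for Jarid2 and 17.7 for Gphn. The high values of these 3 genes were thus found in both groups of the 24 h table and in neither group of the other tables.

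Of the 24 genes, 19 had a ratio in the cocaine pair too, and 10 of them passed 0.5 there in the same direction. The highest ratio of the 24, 9.42, belonged to Ighm, the constant region of the immunoglobulin mu chain. Ighm stood at 6889 FPKM in saline 7 d and between 7.53 and 11.5 in the other 5 groups. Its coordinates differ slightly between the tables, and its ratio was 9.42 with the locus of highest mean FPKM too. Trbc2, a constant region of the T cell receptor, was listed at 59332 FPKM in saline 24 h and 3470000 in saline 7 d, and between 429073 and 2210000 in the other groups. Small RNAs also stood out: of 73 genes annotated as small nuclear RNA, 59 (80.8%) passed 0.5, against 450 of 11094 protein-coding genes (4.06%). The libraries were enriched for poly-A transcripts, which most small nuclear RNAs are not. The protein-coding genes held 208 of the higher and 242 of the lower calls.

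Immediate-early genes were lower in the late control group than in the 24 h controls. Of 42 listed genes, 38 were compared, 10 were lower by at least 0.5 and 0 were higher by as much. The lower share of all genes compared was 2.95%. The median ratio of the list was -0.38 against 0 over all genes, and 32 of the 38 stood below 0. The lower genes were Arc, Fos, Dusp4, Dusp1, Nr4a1, Dusp5, Nr4a2, Egr4, Junb and Egr1, of which 6 had equal coordinates in both tables. Over the 22 members with equal coordinates the median was -0.28. The cocaine pair had a list median of -0.20, and 9 of the 10 lower genes were lower by at least 0.5 there too. The direction was thus shared by both treatments. Among the 37 members with at least 1 FPKM in every group, saline 7 d was the lowest of the 6 groups in 14 (37.8%), beside 28.4% of all genes.

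Arc (chr15:74669083-74672570, GRCm38), whose product regulates AMPA receptor endocytosis at active synapses, stood at 5.59 FPKM in saline 2 h, 23.2 in saline 24 h and 6.47 in saline 7 d. In cocaine it stood at 77.8, 54.1 and 21.6 FPKM at the same times. Its log2 ratio of -1.82 was the largest decrease of the list, and the late control value lay near that of the 2 h controls rather than near that of the 24 h controls. Fos, a subunit of the transcription factor AP-1, stood at 2.02, 3.95 and 1.59 FPKM in saline and at 14.3, 9.24 and 4.66 in cocaine, with a ratio of -1.29. Junb, another AP-1 subunit, stood at 11.4, 20.1 and 12.9 FPKM in saline and at 61.6, 33.7 and 17.9 in cocaine, with a ratio of -0.62. For both AP-1 genes the 24 h value was the highest of the 3 saline values.

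Of the 5 listed phosphatases that switch off MAP kinases, 3 were lower by at least 0.5, beside 2.95% of all genes compared. Dusp1 stood at 5.85, 11.9 and 6.14 FPKM in saline (ratio -0.93), and Dusp4 at 1.48, 2.74 and 1.14 (ratio -1.24). Dusp5, a phosphatase of nuclear ERK, stood at 1.78, 1.93 and 1.08 FPKM in saline (ratio -0.81) and at 4.52, 3.15 and 1.67 in cocaine. Dusp5 thus differed from Dusp1 and Dusp4 in that its 2 h and 24 h controls were nearly level. Dusp6 had a ratio of -0.39, and Dusp14, at 55.4 FPKM in saline 24 h and 64.4 in saline 7 d, one of 0.24. Among the nuclear receptors of the Nr4a family, Nr4a1 stood at 8.05, 15.4 and 8.47 FPKM in saline (ratio -0.84) and Nr4a2 at 1.44, 2.56 and 1.46 (ratio -0.79). Nr4a2 was the only one of the 10 genes whose cocaine pair did not pass -0.5, with a cocaine ratio of 0.44.

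The zinc finger factors Egr1 and Egr4 followed a second pattern. Egr1 stood at 41.9, 35.1 and 22.6 FPKM in saline and at 121, 70.0 and 38.4 in cocaine, and its saline ratio was -0.61. Egr4 stood at 11.1, 11.6 and 7.09 FPKM in saline and at 23.4, 14.2 and 9.41 in cocaine, and its saline ratio was -0.68. In these genes the late controls were below both earlier control groups. Over the 10 lower genes, saline 7 d was the lowest of the 6 groups in 5 and saline 2 h in the other 5, and cocaine 2 h was the highest in all 10. Against saline 2 h, 7 of the 10 lay within 0.5 in saline 7 d and 3 (Dusp5, Egr4 and Egr1) were lower by at least 0.5. The median of the whole list was 0.02 for saline 7 d over saline 2 h and -0.25 for saline 2 h over saline 24 h, pairs which share a group with the main pair.

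Not every immediate-early gene was lower. Rheb, a GTPase that activates mTORC1, had the highest ratio of the list, 0.27, and stood at 73.1, 73.3 and 87.0 FPKM in saline. Bdnf, a neurotrophin, stood at 7.55, 7.61 and 8.01 FPKM, Homer1, a postsynaptic scaffold gene, at 35.7, 34.5 and 33.4, and Npas4, an activity-dependent transcription factor, at 1.15, 1.39 and 1.44. Jun stood at 8.80, 14.1 and 12.8 FPKM in saline, so that this AP-1 gene kept a value at 7 d that was nearer to the 24 h controls.

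**Figure D2:**
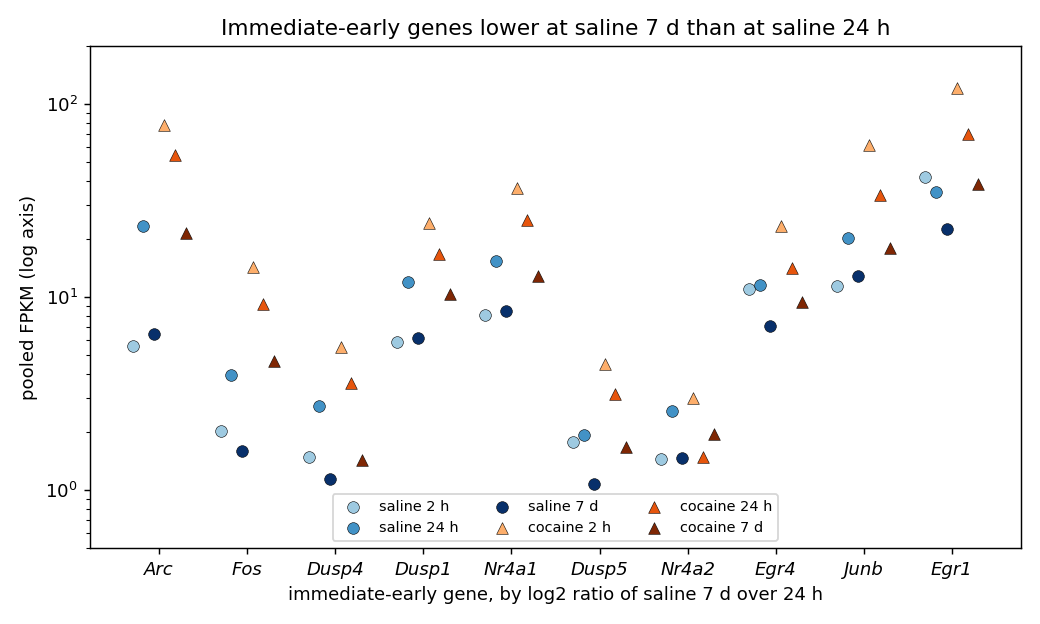
Pooled FPKM on a log axis of the 10 immediate-early genes that were lower by at least 0.5 in saline 7 d than in saline 24 h, ordered from the lowest ratio; circles are saline and triangles cocaine, and darker colours mark later times. For every gene but Egr1 the saline 24 h point is the highest of the saline points, and for all 10 genes the cocaine 2 h point is the highest.

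Promoters were read for these genes because they share a direction and because many immediate-early promoters are known to answer to CREB, which binds TGACGTCA and its shorter form TGACG. RefSeq promoters on GRCm38.p6 were matched by symbol for 7 of the 10 lower genes, and the 250 bases before the start were searched on both strands. TGACG, which is part of TGACGTCA, was found in 7 of these 7 promoters, in 10 of the 21 promoters matched for the other immediate-early genes, in 27.7% of 8699 promoters of genes compared and in 17.9% of all 27025 promoters. The whole TGACGTCA was found in 1 of the 7, in Dusp1, in 2 of the 21 promoters of the other immediate-early genes, in 2.83% of promoters of genes compared and in 1.62% of all promoters. The CArG box, the site of serum response factor, was found in 1 of the 7, in Dusp5, in 0 of the 21, in 1.09% of promoters of genes compared and in 1.4% of all promoters. Such a match is a description of the letters and not a bound site. Sites more than 250 bases before the start were not searched, and Arc, Dusp4 and Egr1 had no matched promoter. The 250 bases before the start of Fos (chr12:85473640-85473889, plus strand), Dusp1 (chr17:26508473-26508722, minus strand) and Nr4a1 (chr15:101266596-101266845, plus strand), the most strongly lower genes with a matched promoter, are shown 5′ to 3′ along the gene, with the matches in capitals (CGTCA is TGACG read on the other strand).
Fos: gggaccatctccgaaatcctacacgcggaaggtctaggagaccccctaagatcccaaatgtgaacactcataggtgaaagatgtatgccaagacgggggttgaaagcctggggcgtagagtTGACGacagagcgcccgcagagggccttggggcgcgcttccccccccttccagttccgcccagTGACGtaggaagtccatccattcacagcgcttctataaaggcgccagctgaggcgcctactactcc
Dusp1: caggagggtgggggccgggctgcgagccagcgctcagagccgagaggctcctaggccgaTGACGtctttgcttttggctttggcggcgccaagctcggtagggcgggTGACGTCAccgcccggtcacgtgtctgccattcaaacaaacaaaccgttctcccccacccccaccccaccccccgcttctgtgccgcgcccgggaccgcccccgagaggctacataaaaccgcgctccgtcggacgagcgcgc
Nr4a1: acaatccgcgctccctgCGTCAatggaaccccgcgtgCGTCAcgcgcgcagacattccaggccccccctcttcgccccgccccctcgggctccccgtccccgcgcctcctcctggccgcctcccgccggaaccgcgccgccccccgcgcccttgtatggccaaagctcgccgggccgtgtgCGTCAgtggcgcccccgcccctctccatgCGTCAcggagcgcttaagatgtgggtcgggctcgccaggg

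Genes of oxidative phosphorylation, the ribosomes and the proteasome were a little higher in the late control group before transcript length was considered. Of 69 genes of oxidative phosphorylation compared, 63 stood above 0 and 6 were higher by at least 0.5, with a median of 0.28. Of 75 cytosolic ribosomal genes 71 stood above 0 and 5 were higher by at least 0.5 (median 0.22), and of 69 mitochondrial ribosomal genes 65 stood above 0 and 2 were higher by as much (median 0.22). Of 40 proteasome genes 35 stood above 0 and 0 passed 0.5 (median 0.17). No member of these 4 lists was lower by at least 0.5. Over all genes 3.23% were higher by as much, a share that the mitochondrial ribosome did not exceed. These genes are short, and when the trend with length was subtracted the medians were 0.10, 0.02, 0.13 and 0.06 in the order given, with 50 of 69, 43 of 73, 52 of 68 and 27 of 40 genes with a length above 0.

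The values of subunits of the respiratory complexes show the size of the difference. Ndufa1, an accessory subunit of complex I, stood at 165, 133 and 208 FPKM in saline at 2 h, 24 h and 7 d and at 167, 128 and 165 in cocaine (ratio 0.67). Ndufs4, another subunit of complex I, stood at 37.5, 37.6 and 56.8 FPKM in saline and at 37.2, 36.9 and 42.7 in cocaine (ratio 0.62). Cox7a2, a subunit of cytochrome c oxidase, stood at 222, 206 and 307 FPKM in saline and at 232, 200.4 and 218 in cocaine (ratio 0.60). For Ndufa1, Ndufs4 and Cox7a2 the late controls were above all 5 other groups, and for Ndufs4 the 7 d cocaine group was the next highest. Uqcrh, a subunit of complex III, stood at 309, 275 and 396 FPKM in saline and at 306, 261 and 306 in cocaine (ratio 0.55), and was highest in the late controls too. With the length trend subtracted the ratios were 0.44 for Ndufa1, 0.51 for Ndufs4, 0.36 for Cox7a2 and 0.31 for Uqcrh.

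Ribosomal protein genes followed. Rps20, of the small subunit, stood at 165, 191 and 397 FPKM in saline and at 186, 180.0 and 298 in cocaine. Its ratio of 1.07 was the highest of the list. Its locus spanned chr4:3824634-3835675 (GRCm38) at 7 d and chr4:3830953-3835665 at 24 h. The length used for Rps20 was 3706 bases, beside a list median of 855. Rps27 stood at 462, 391 and 650 FPKM in saline and at 479, 320 and 410 in cocaine (ratio 0.75). Both genes were highest in the late controls, and Rps20 was high in the 7 d cocaine group too. Ribosomal protein genes have many processed pseudogenes that can share their reads, so that the level of a single one is uncertain. Mrpl23 of the mitochondrial ribosome stood at 26.0, 20.9 and 29.5 FPKM in saline (ratio 0.52), and Mrps33 at 46.9, 46.9 and 65.6 (ratio 0.51). With the length trend subtracted the ratios were 1.13 for Rps20, 0.52 for Rps27, 0.28 for Mrpl23 and 0.33 for Mrps33. The proteasome genes Psmb1 and Psmb5, which encode subunits of the catalytic core, had ratios of 0.37 and 0.29.

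Placed among all 6 groups, with the trend over length not subtracted, it was the 7 d saline group that stood apart in these lists. Each gene's log2 FPKM was set against the gene's mean over the 6 groups, saline 7 d included, and then centred on the median of its group. The median of the genes of oxidative phosphorylation was 0.227 in saline 7 d and between -0.069 and -0.01 in the other 5 groups, cocaine 7 d included. For the cytosolic ribosome it was 0.224 against -0.093 to -0.003, and for the mitochondrial ribosome 0.188 against -0.067 to 0.007. Saline 7 d was the highest of the 6 groups in 60 of 69 genes of oxidative phosphorylation (87%), 68 of 75 cytosolic ribosomal genes (90.7%), 58 of 69 mitochondrial ribosomal genes (84.1%) and 30 of 40 proteasome genes (75%). Over all 12280 genes with at least 1 FPKM in every group, it was the highest in 27.7% and the lowest in 28.4%. The cocaine pair, which shares no library with the saline pair, had medians of 0.02 for oxidative phosphorylation, 0.09 for the cytosolic ribosome, 0.04 for the mitochondrial ribosome and 0.00 for the proteasome. The contrast of cocaine with saline at 7 d shares the 7 d saline group with the main pair, and its medians were -0.25, -0.24, -0.21 and -0.19 in the same order. At 24 h the same contrast gave -0.02, -0.08, -0.03 and -0.01. These levels, ranks and medians were all taken without subtracting the length trend. With that trend subtracted, the medians of the main pair were 0.10, 0.02, 0.13 and 0.06 in the same order.

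The 9 genes encoded by mitochondrial DNA had a median of 0.19, with 8 above 0 and 0 past 0.5, and the cocaine pair gave 0.26. Among the 6 groups their median was 0.266 in saline 7 d and between -0.25 and 0.051 in the others, and saline 7 d was the highest in 8 of 9 (88.9%). mt-Co2, a subunit of cytochrome c oxidase, stood at 18751, 21313 and 23919 FPKM in saline, and mt-Nd1 of complex I at 16297, 19463 and 19414. With quantile normalization in place of centring, the median of this list was -0.42, and over the 7 members with a length it was -0.05 once the length trend was subtracted. Of the 14 replication-dependent histone genes, 2 were higher by at least 0.5, beside 3.23% of all genes compared, and the list median was 0.08. The 2 genes were Hist1h4i with 1.65 FPKM at 24 h and 2.38 at 7 d and Hist1h4h with 1.37 and 1.96, values near the limit of 1 FPKM. Their ratios fell under 0.5, to 0.31 and 0.30 with the length trend subtracted and to 0.37 and 0.34 with a pseudocount of 1. The list median was -0.14 with the length trend subtracted. Histone messages of this kind lack a poly-A tail.

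**Figure D3:**
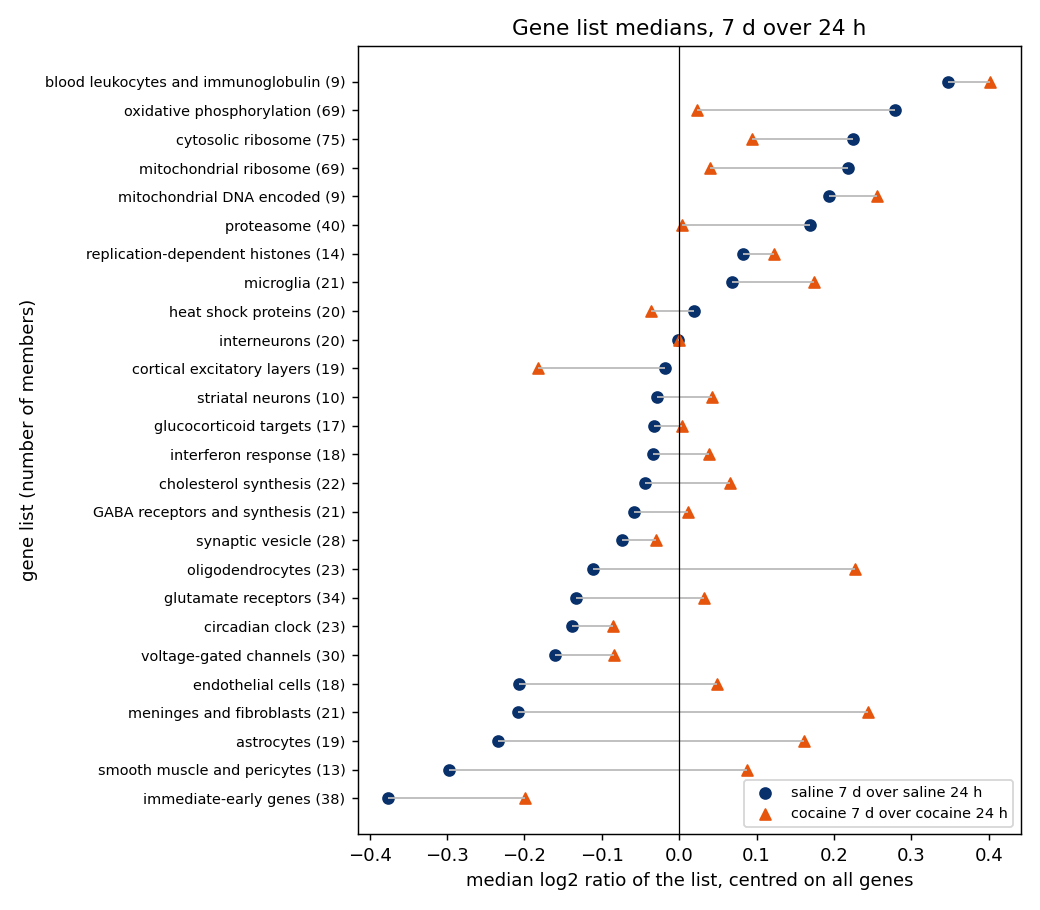
Median centred log2 ratio of each gene list with at least 9 members, for saline 7 d over saline 24 h (circles) and for cocaine 7 d over cocaine 24 h (triangles), with the number of members beside each name. The lists of oxidative phosphorylation, ribosomes and proteasome lie between 0.17 and 0.28 in saline and between 0.00 and 0.09 in cocaine, with the trend over length not subtracted. The lists of astrocytes, endothelial cells, smooth muscle and meninges lie between -0.30 and -0.21 in saline and between 0.05 and 0.24 in cocaine.

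Other lists were lower in the late controls, among them markers of the vessel wall, meninges and astrocytes and genes of ion channels. In bulk tissue, fewer cells of a type and less RNA per cell cannot be told apart. Of 13 markers of smooth muscle and pericytes 11 stood below 0, with a median of -0.30. Of the 13 markers, 2 were lower by at least 0.5, beside 2.95% of all genes compared. Saline 7 d was the lowest of the 6 groups in 9 of 13 (69.2%). Myh11, the smooth muscle myosin heavy chain, stood at 1.86, 1.98 and 1.14 FPKM in saline and at 2.25, 2.17 and 1.65 in cocaine (ratio -0.77). Acta2, smooth muscle actin, stood at 9.60, 9.84 and 6.71 FPKM in saline and at 10.7, 10.6 and 9.38 in cocaine (ratio -0.53). Both genes were lowest in the late controls.

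Other cells of the vessels and coverings of the brain gave medians of like size. The 18 endothelial markers had a median of -0.21, and Vwf, the von Willebrand factor gene, stood at 4.13, 4.81 and 3.27 FPKM in saline (ratio -0.54). The 21 markers of meninges and fibroblasts had a median of -0.21 with 17 below 0, and Aebp1, a matrix-associated protein gene, stood at 7.50, 9.35 and 6.30 FPKM (ratio -0.55). For Vwf and Aebp1 the 24 h controls were the highest saline group. The 19 astrocyte markers had a median of -0.23, with 18 below 0 and 0 past 0.5. Glul, which encodes glutamine synthetase, stood at 638, 714 and 602 FPKM in saline (ratio -0.22), and Cpe at 1328, 1501 and 1398 (ratio -0.08). Saline 7 d was the lowest of the 6 groups in 33.3% of the endothelial, 30% of the meningeal and 47.4% of the astrocyte markers, beside 28.4% of all genes. Against saline 2 h, which shares saline 7 d with the main pair, the medians were -0.05, 0.09 and -0.04 for these 3 lists and -0.33 for smooth muscle and pericytes. With the length trend subtracted the medians of the main pair were -0.14 for endothelial cells, -0.28 for meninges, -0.14 for astrocytes and -0.23 for smooth muscle and pericytes. The cocaine pair had medians of the other sign in these lists, 0.09 for smooth muscle and pericytes, 0.05 for endothelial cells, 0.24 for meninges and 0.16 for astrocytes.

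Among genes of neuronal excitability, the 30 voltage-gated channels had a median of -0.16, with 25 below 0. Of the 30 channels, 2 were lower by at least 0.5, beside 2.95% of all genes compared. Saline 7 d was the lowest of the 6 groups in 22 of the 30 (73.3%), beside 28.4% of all genes. Scn1a, the sodium channel of fast-spiking interneurons, stood at 18.1, 17.2 and 10.1 FPKM in saline and at 16.7, 17.2 and 10.6 in cocaine (ratio -0.75). Cacna1e, which encodes the R-type calcium channel, stood at 12.4, 11.7 and 7.03 FPKM in saline and at 11.9, 11.7 and 7.87 in cocaine (ratio -0.72). Both channels were therefore low in both groups of the 7 d table, not in the late controls alone. The locus of Scn1a spanned chr2:66270781-66634962 (GRCm38) at 7 d and chr2:66270781-66440840 at 24 h, and that of Cacna1e differed only in its start. The part of the unlike loci in these ratios was not tested. The 34 glutamate receptor and postsynaptic density genes had a median of -0.13 with 0 past 0.5. Dlgap3, a postsynaptic scaffold gene, stood at 114, 145 and 103 FPKM in saline (ratio -0.47), and Dlg4 at 288, 319 and 270 (ratio -0.22). With the length trend subtracted the median was -0.05 for the channels, with 12 of 30 above 0, and -0.02 for the glutamate list, and the ratios of Scn1a and Cacna1e were -0.58 and -0.55. The 21 genes of GABA receptors and synthesis had a median of -0.06 and the 28 synaptic vesicle genes -0.07, with Gphn as the only member of either past 0.5.

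The remaining lists moved less or rest on few members. The 23 circadian clock genes had a median of -0.14 with 0 past 0.5. Of the 2 with the highest FPKM, Nr1d1, a repressor of the clock loop, stood at 54.6, 45.2 and 38.9 FPKM in saline and at 61.6, 54.0 and 37.5 in cocaine. The other, Tef, was nearly level in saline at 75.0, 72.3 and 71.0 FPKM. Saline 7 d was the lowest of the 6 groups in 15 of these 23 genes (65.2%), and the median was -0.07 with the length trend subtracted. Of 17 glucocorticoid targets, with a median of -0.03, 1 was higher and 1 lower by at least 0.5, beside 3.23% and 2.95% of all genes. Mt2, a metallothionein, was higher (160.3 FPKM at 24 h and 261 at 7 d in saline, and 163 and 250.4 in cocaine). Nr3c2, the mineralocorticoid receptor, was lower (9.12 and 6.13 in saline). With the length trend subtracted their ratios were 0.49 and -0.43, under the limit. That of Nr3c2 was -0.49 with a pseudocount of 1. The medians were 0.02 for heat shock proteins, -0.03 for the interferon response, -0.04 for cholesterol synthesis and -0.01 for the dopamine system. Rtp4, an interferon-induced gene, was the 1 member of 18 on the interferon list past 0.5, beside 3.23% of all genes higher by as much. It stood at 1.19 FPKM at 24 h, near the limit of 1, and at 2.38 at 7 d. Its locus began at base 23601796 at 24 h and 23451785 at 7 d, and the part of this in its ratio was not tested.

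The markers of tissue makeup were as follows. The neuronal genes Snap25 (1496 FPKM at 24 h and 1581 at 7 d) and Slc17a7 (522 and 466) were high in both saline groups, as the labelled tissue implies. Of the 22 listed choroid plexus markers 4 were compared, and Ttr, a transthyretin gene that defines this tissue, was under 1 FPKM in the late controls (1.80 at 24 h and 0.284 at 7 d) and was therefore left out. Of 14 olfactory bulb markers 3 were compared (median 0.06), and of 20 striatal markers 10 (median -0.03). The medians were -0.02 for cortical excitatory layers, 0.00 for interneurons, -0.11 for oligodendrocytes, 0.07 for microglia, -0.09 for 7 red blood cell genes and -0.03 for the 4 choroid plexus genes. The microglial gene Laptm5 (22.5 FPKM at 24 h and 15.6 at 7 d), the oligodendrocyte gene Myrf (2.54 and 1.71) and the growth factor gene Ctgf (2.92 and 1.86) were each lower by over 0.5. Of 9 markers of blood leukocytes and immunoglobulin, 4 were higher by at least 0.5, beside 3.23% of all genes compared. They were Ighm, S100a8 (1.43 and 2.22 FPKM), S100a9 (1.29 and 1.91) and Igkc (1.78 and 2.65). With the length trend subtracted the ratios of S100a8, S100a9 and Igkc were 0.41, 0.35 and 0.36, under the limit. With a pseudocount of 1 they were 0.42, 0.36 and 0.41. Both calprotectin genes, S100a8 and S100a9, were higher in the 7 d cocaine group as well, at 2.73 and 3.12 FPKM. The 4 sex-linked genes had a median of 0.00, and the Y-linked Ddx3y stood at 9.25 and 8.56 FPKM, and both groups are described as male. The part of these markers in the other ratios was not tested.

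The ratios followed transcript length. The length was that of the longest protein-coding transcript of each symbol in GENCODE, untranslated regions included, and was found for 10668 genes (83.9%). Across these genes the log2 ratio and the length had a Spearman correlation of -0.443 and a Pearson correlation of -0.271. Genes are not independent replicates, and this is a description without a test. Split by length into 20 bins, the shortest genes, with a median length of 684 bases, had a median ratio of 0.239, and the longest, with a median length of 9116 bases, had -0.168. The medians fell from each bin to the next. The Spearman correlation was -0.476 over 5046 genes with equal coordinates, -0.529 over 5059 genes with a mean of at least 10 FPKM and -0.432 over 9973 genes outside all gene lists. It was -0.481 for saline 7 d over saline 2 h, 0.014 for saline 2 h over saline 24 h and -0.109 for cocaine 7 d over cocaine 24 h. The trend was thus large in both pairs that hold the 7 d saline group and near 0 between the earlier saline groups.

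**Figure D4:**
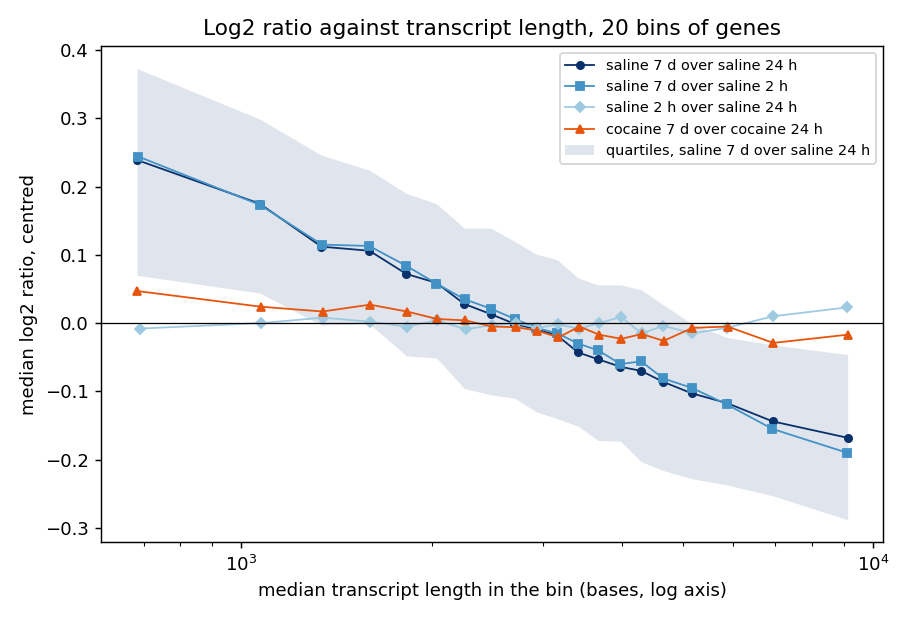
Median centred log2 ratio in 20 bins of genes ordered by GENCODE transcript length, for 4 pairs of groups. Each bin is plotted at its median length on a log axis, and the shaded band spans the quartiles of saline 7 d over saline 24 h. Both pairs with saline 7 d run from about 0.24 in the shortest bin to below -0.16 in the longest, and the other pairs stay between -0.03 and 0.05.

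Length moved with the gene lists as well. The median length was 955 bases for oxidative phosphorylation and 855 for the cytosolic ribosome, against 3043 over all genes, and 7072 for the voltage-gated channels. The values given above with the trend subtracted had the median ratio of their length bin taken off. Over the 10668 genes with a length, lower calls past 0.5 outnumbered higher ones both before this step and after it. The immediate-early genes kept a median of -0.33, and 10 of their 10 lower members stayed lower by at least 0.5. The part of this trend in the ratios of single genes was not tested otherwise.

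At some genes the late controls stood apart from all 5 other groups. Among the 12280 genes with at least 1 FPKM in every group, saline 7 d was the highest by at least 0.5 above the next group at 41 and the lowest by as much at 24, together 0.529%. The same counts were 71 and 41 for cocaine 2 h, and between 5 and 16 for each of the other 4 groups. Only cocaine 2 h thus stood alone at more genes. The protein-coding genes with equal coordinates in the 3 tables were 15, of which 6 were highest and 9 lowest in saline 7 d. They were chosen after their values were seen.

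Tfcp2l1, which encodes a transcription factor of the grainyhead family, stood at 6.38 FPKM in saline 7 d and between 1.20 and 1.49 in the other groups. Med23, a subunit of the Mediator complex, stood at 10.6 FPKM against 4.46 to 5.08, and Lars2, the mitochondrial leucyl-tRNA synthetase, at 1399 against 519 to 801. Tac1, the precursor of substance P and neurokinin A (chr6:7554879-7565834, GRCm38), stood at 15.1 FPKM in saline 7 d, at 10.5 and 9.14 in saline 2 h and 24 h, and at 9.31, 9.14 and 9.79 in cocaine. Tac1 is on the lists of interneurons and striatal neurons, of which it was the one member past 0.5. In the other direction, Auts2, a gene of neuronal development, stood at 7.78 FPKM in saline 7 d, at 15.4 and 35.1 in saline 2 h and 24 h, and at 21.2, 29.2 and 41.4 in cocaine. The potassium channel gene Kcna3 stood at 1.07 FPKM against 1.72 to 1.97, and Insm1, a zinc finger factor of neuroendocrine development, at 1.35 against 2.00 to 3.35. Egr1, Dusp5, Acta2 and Myh11 belong to the same 9 genes.

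**Figure D5:**
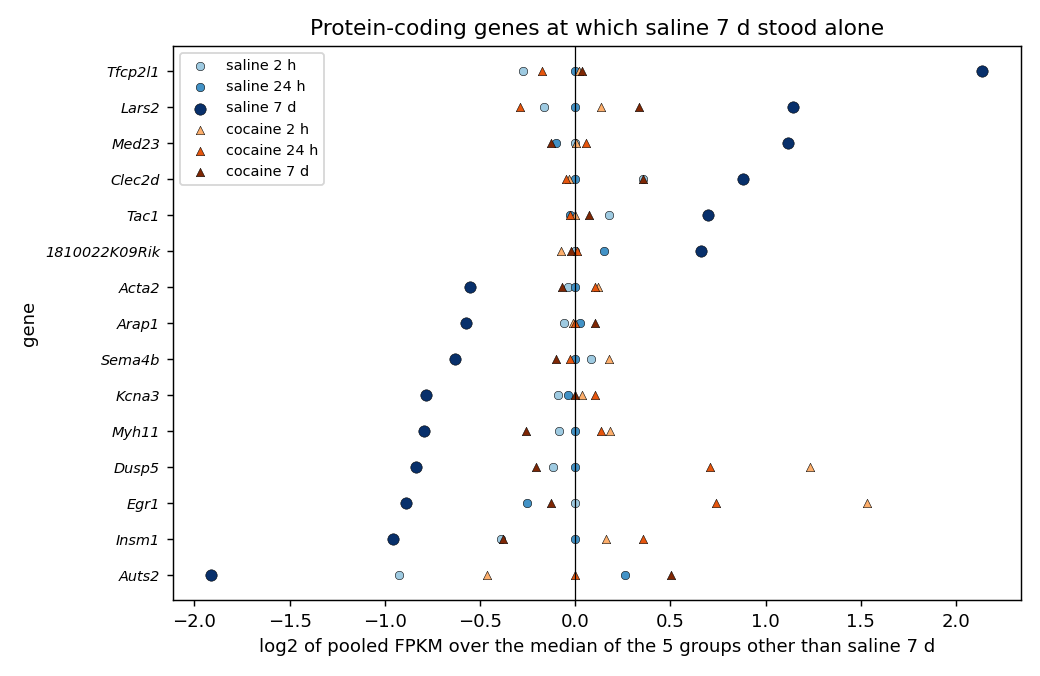
Log2 of the pooled FPKM of each group over the median of the 5 groups other than saline 7 d, for the 15 protein-coding genes with equal coordinates at which saline 7 d was the highest (6 genes) or lowest (9 genes) by at least 0.5; circles are saline and triangles cocaine. The saline 7 d point lies outside the other 5 at each gene, by the choice of the genes, and furthest out at Tfcp2l1 and Auts2.

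Part of the difference between the late and the 24 h controls was shared by the cocaine groups of the same times. Of the 410 higher genes, 373 had a ratio in the cocaine pair, of which 88 were higher by at least 0.5, 35 lower and 250 within 0.5, and their medians were 0.66 in saline and 0.23 in cocaine. Of the 375 lower genes, 349 had one, of which 116 were lower by at least 0.5, 20 higher and 213 within 0.5, with medians of -0.66 and -0.27. Over all 12488 genes with both ratios, 223 were higher and 269 lower by at least 0.5 in cocaine. Across these genes the ratios had a Pearson correlation of 0.461 and a Spearman correlation of 0.296, and over the 6057 with equal coordinates 0.204 and 0.267. The saline and cocaine values of a time point come from 1 table and its loci, so the pairs share that source though they share no mice.

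Some genes of the shared kind were protein-coding genes with equal coordinates, picked after their values were seen. Polr2a, the largest subunit of RNA polymerase II, stood at 16.9, 18.3 and 7.64 FPKM in saline and at 18.8, 18.9 and 9.26 in cocaine. Ncor1, a nuclear receptor corepressor, stood at 58.0, 63.8 and 38.3 FPKM in saline and at 56.7, 61.5 and 41.8 in cocaine. Ralgapa1, a GTPase-activating protein gene, stood at 18.2, 17.0 and 34.6 FPKM in saline and at 17.4, 17.3 and 29.8 in cocaine. Ppp2ca, a catalytic subunit of protein phosphatase 2A, stood at 54.6, 54.4 and 84.5 FPKM in saline and at 51.9, 54.6 and 83.7 in cocaine. At these 4 genes both 7 d groups stood on the same side of all 4 earlier groups.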

How the data were processed

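RNA-seq of mouse PFC, 12 libraries in 6 groups, was used as 1 table per time point. Per the labels, the authors used CASAVA 1.8.2, Trimmomatic 0.32, TopHat2 2.0.12 and Cuffdiff of Cufflinks 2.2.1. The authors deposited pooled FPKM per group, normalized within each table, together with their own fold changes, test statistics, p-values and q-values, which were not used. Column headers do not separate saline from cocaine, so the columns were assigned by the FPKM of the paper's supplementary tables. At 2 h 376 of 453 listed genes matched within 2%, at 24 h 13 of 14 and at 7 d 487 of 528, and 0 matched the reverse. The methods name mm9, but loci of 99.9% of 11315 symbols overlapped the same gene on GRCm38.p6 and 15.6% on NCBIM37.

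Ratios, lists and lengths were computed in Python 3.11.15 with pandas 2.3.3 and no pseudocount, and the steps were tested on simulated data. Named genes were the 12 highest and 12 lowest ratios (1 name, locus of at least 300 bases, at least 5 FPKM in the higher group) and, per list, up to 4 members past 0.5 in each direction or the 2 of highest FPKM; others are marked as chosen later, or are members of the immediate-early list or tissue markers given with their levels. The members, the 31 gene lists and the rules were chosen with earlier results of these data known. Alternatives were other FPKM limits, a pseudocount, scalings, locus choices and removal of the length trend.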

Additional observations from a re-analysis of the deposited data

Results flagged for a closer look

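At 4 of the genes named by size, the saline pair and the cocaine pair passed 0.5 in opposite directions. The difference between the pairs was not tested, since each group has 1 pooled value. Auts2 had a log2 ratio of 7 d over 24 h of -2.15 in saline and 0.55 in cocaine, a difference of -2.70. Gm25733 had -3.10 and 1.98, a difference of -5.08. Gm26427 had 2.01 and -1.84, a difference of 3.85, and Gm3788 had 3.10 and -3.58, a difference of 6.68. Auts2 is protein-coding, Gm26427 is annotated as a small nuclear RNA and Gm3788 as a pseudogene, and Gm25733 had no annotation match. Values of the latter genes varied widely between groups. In cocaine at 2 h, 24 h and 7 d, Gm25733 stood at 0, 1.03 and 3.92 FPKM, and Gm3788 at 0.733, 32.5 and 2.62.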

How the results depend on the processing

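No paired analysis was possible because every column merges both libraries of its group and carries no replicate. For the same reason no replicate could be left out. The counts of 410 higher and 375 lower genes became 180 and 132 with a minimum of 5 FPKM, 646 and 662 with no minimum, 252 and 199 with a pseudocount of 1, 142 and 221 with the length trend taken out, and 103 and 85 at a limit of 1. With settings added after the data were seen they became 221 and 219 over genes with equal coordinates, centred on those genes, 208 and 242 over protein-coding genes, and 204 and 244 over genes with a transcript length. Uncentred, quantile-normalized, highest-locus and single-name settings kept both counts within 1.5 times.

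Of 307 list medians recomputed over 28 lists, 289 lay within 0.1 of the reported value and 18 did not. With the length trend taken out these were 0.10 for oxidative phosphorylation, -0.05 for mitochondrial DNA, 0.02 for the cytosolic ribosome, 0.06 for the proteasome, -0.14 for histones, -0.02 for glutamate receptors, -0.05 for voltage-gated channels, -0.12 for interneurons, -0.38 for red blood cells and 0.24 for leukocytes. Over genes with equal coordinates they were -0.46 for glutamate receptors (3 genes), -0.17 for GABA receptors, -0.32 for voltage-gated channels and 0.22 for leukocytes. The leukocyte median was 0.15 both without a minimum and over protein-coding genes, the immediate-early median was -0.26 with a pseudocount of 1, and the median of mitochondrial DNA was -0.42 with quantile normalization. Beyond the changes of genes and members that these settings make, the cause was not tested. Of the named genes past 0.5, 14 of 56 fell under it with a pseudocount of 1 (Acta2 and Myh11 among them), 16 of 42 with the length trend taken out (Ndufa1, Cox7a2 and Mt2 among them), 4 of 56 with quantile normalization, and Ensa and Tmem261 with the locus of highest mean FPKM; no sign changed.

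With 1 pooled value per group, no ratio can be set against the spread between mice or libraries, and low values are the least certain.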

Other observations

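Several loci under the limit in 1 saline group were listed at very high values in the other. Mir320, a short microRNA locus, was listed at 0 FPKM in saline 2 h and saline 7 d, at 235322 in saline 24 h and at 3180000, 1170000 and 1150000 in cocaine at 2 h, 24 h and 7 d. Ttr, which marks choroid plexus, stood at 1.90, 1.80 and 0.284 FPKM in saline and at 0.461, 1.10 and 6.54 in cocaine, so that the 7 d saline group was the lowest and the 7 d cocaine group the highest of the 6.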
